A study of Mus musculus with 12 samples.

Results

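The arrays described here were the 5 of 12 on which Mt1, a metallothionein gene, read at a log2 level of 9 or more at its brighter probe set. They held 3 arrays of cells given TCDD, taken at 2, 4 and 6 h, and 2 arrays of cells given the solvent, taken at 2 and 6 h. All came from ET cells, an unmodified mouse line labelled as fetal epithelium of the thymic cortex, grown in medium with serum to near confluence. The treated cells received 5 nM TCDD (2,3,7,8-tetrachlorodibenzo-p-dioxin), and the controls received 1,4-dioxane at 0.05% by volume. The series asked which genes answer to activation of the aryl hydrocarbon receptor (AhR) in this line, and it held 6 groups of 2 arrays, 1 group per treatment and time. Here the question was what TCDD did to RNA levels in the metallothionein-high arrays, and whether that differed from the other 7 arrays (3 TCDD and 4 solvent), called metallothionein-low. Arrays of a group are called biological duplicates without a word on what was repeated, so the p-values below cover only the spread between arrays, which may be technical. The 6 h solvent array of the set carries 6 h in its title and time field and 4 h in its description and protocol, so its time is uncertain. Its title set its group.

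The AhR is a receptor that waits in the cytoplasm with Hsp90 and, once it binds a dioxin, enters the nucleus, pairs with Arnt and binds DNA at the xenobiotic response element. Its best known targets are Cyp1 family cytochrome P450 enzymes, other enzymes that oxidise or conjugate foreign compounds, and the feedback gene Tiparp, and dioxins are known to shrink the thymus in rodents. Metallothioneins are small cysteine-rich proteins that bind zinc and other metals, and the zinc-sensing factor MTF1 raises their RNA through metal response elements.

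Mt1 read at 9.6, 10.1 and 10.6 (log2) in the TCDD arrays at 2, 4 and 6 h, against 10.5 and 10.8 in the solvent arrays at 2 and 6 h. On the 7 metallothionein-low arrays it lay between 7.1 and 7.4, so no array lay near the threshold: the lowest inside was 9.6 and the highest outside 7.4. These values chose the arrays and are given as a description. Mt2, whose gene neighbours Mt1, read at 8.9, 8.9 and 10.5 with TCDD, against 9.6 and 10.7 with solvent, and between 6.4 and 6.8 on the metallothionein-low arrays. A second Mt1 probe set was much dimmer, at 5.4, 5.1 and 4.9 with TCDD against 5.9 and 5.0 with solvent. Within the set the TCDD and solvent values of Mt1 and of Mt2 overlapped. A threshold of 8 would have chosen the same 5 arrays, and a threshold of 10 would have left out the 2 h TCDD array. Mtf1 itself read at 6.2, 6.4 and 6.3 with TCDD and at 6.3 and 6.0 with solvent.

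The promoters of the 2 metallothionein genes that mark these arrays are shown with their metal response cores in capitals. The letters searched were TGCACNC and TGCGCNC on both strands, and the windows, from RefSeq (GRCm38.p6), run from 250 bases before to 50 bases after the start site. Mt1 lies at chr8:94178839-94179138 and Mt2 at chr8:94172368-94172667, both on the plus strand.
Mt1: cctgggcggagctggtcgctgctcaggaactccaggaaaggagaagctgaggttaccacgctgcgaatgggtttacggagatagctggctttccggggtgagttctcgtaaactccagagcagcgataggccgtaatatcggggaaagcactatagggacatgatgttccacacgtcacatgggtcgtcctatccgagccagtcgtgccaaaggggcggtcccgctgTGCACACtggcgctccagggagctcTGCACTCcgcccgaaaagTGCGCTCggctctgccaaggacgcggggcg
Mt2: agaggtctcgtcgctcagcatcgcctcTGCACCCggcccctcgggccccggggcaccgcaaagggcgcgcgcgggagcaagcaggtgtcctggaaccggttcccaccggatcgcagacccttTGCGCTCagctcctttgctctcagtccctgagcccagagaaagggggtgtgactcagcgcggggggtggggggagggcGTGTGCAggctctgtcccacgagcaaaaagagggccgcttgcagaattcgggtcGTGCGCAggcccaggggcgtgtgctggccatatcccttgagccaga
The Mt1 window held 3 such cores and the Mt2 window 4. Of all 32851 promoter windows, 25.7% held at least 1, 1.97% held 3 or more and 0.517% held 4 or more. A single GCGTG, the AhR core described below, shares letters with a metal response core in the Mt2 window. A match in letters is a description and does not show binding.

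Of markers of cortical thymic epithelium on the array, 6 of 13 lay above the filter used here (a mean log2 of 4 or more over the 12 arrays), and 4 of 9 for medullary epithelium. Among all genes on the array, 9391 of 12393 lay above it, and every marker count here stands beside that share. Prss16, Ly75, Krt18, Epcam, Cd83, Enpep and Pax1 of the cortical list lay below it. Of the 6 above it, Cxcl12 (11.9 to 12.3 with TCDD) and Ctsl (11.3 to 11.5) were bright, and Ccl25 (5.9 to 6.7), Krt8 (4.9 to 5.3), Dll4 (4.6 to 4.8) and Foxn1 (4.3 to 4.7) lay nearer to it, while all 14 of 14 fibroblast and mesenchyme markers lay above it. The median level of the fibroblast list lay between 10.25 and 10.85 on the TCDD arrays and at 10.95 and 11.1 on the solvent arrays. The cortical list stood at 3.9 to 4.2 with TCDD and 4.0 to 4.2 with solvent. Brightness is only roughly comparable between probe sets. Only Cxcl12 and Ctsl of the cortical list were bright, and the rest lay below the filter or nearer to it. The list as a whole thus did not bear out the label of cortical epithelium, so the cells are called ET cells below. Of the markers of other cells, 4 of 7 for T cells, 4 of 6 for macrophages and 1 of 5 for endothelium lay above the filter, with Ptprc, Rag1 and Cd3g, Adgre1 and Itgam, and Pecam1 and Cdh5 below it. Those above it included Cd14 (6.6 to 7.2 with TCDD against 6.6 and 7.3 with solvent) and Cd68 (4.6 to 4.9 against 4.2 and 4.2) of the macrophage list, Cd4 and Cd3e of the T cell list, and Kdr of the endothelial list. With all 5 arrays Cd68 was the member of these lists whose groups did not overlap, and its part in the results was not tested. Arrays have no read depth, so their number limited the precision.

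The 4 h TCDD array stood apart from the other 4, and no solvent array of its time belongs to the set. It differed by a log2 of 1 or more from the 6 h TCDD array at 2193 of 15762 tested probe sets, from the 2 h solvent array at 1565, from the 6 h solvent array at 1296 and from the 2 h TCDD array at 704. The same count was 217 within the 2 h pair of TCDD and solvent, 234 within the 6 h pair and 403 between the 2 solvent arrays. From the mean of the metallothionein-low arrays it lay 1 or more away at 1394 probe sets, the 6 h TCDD array at 543, the 2 h TCDD array at 361 and the solvent arrays at 257 (2 h) and 226 (6 h). The residual SD within a group was 0.25 (log2) at the median probe set in the metallothionein-high arrays and 0.15 in the metallothionein-low arrays. Control probe sets for the 3′ and 5′ ends of a transcript, a sign of RNA quality, did not set the 4 h array apart within the set: the 3′ end of Actb exceeded the 5′ end by 0.6, 0.5 and 0.6 on the TCDD arrays and by 0.6 and 0.5 on the solvent arrays. They did part the 2 array sets, since the same gap was 0.7 to 0.8 on all 7 metallothionein-low arrays, while for Gapdh it was 0 to 0.1 against 0 to 0.2. The part of this in the comparisons between the sets below was not tested.

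**Figure D1:**
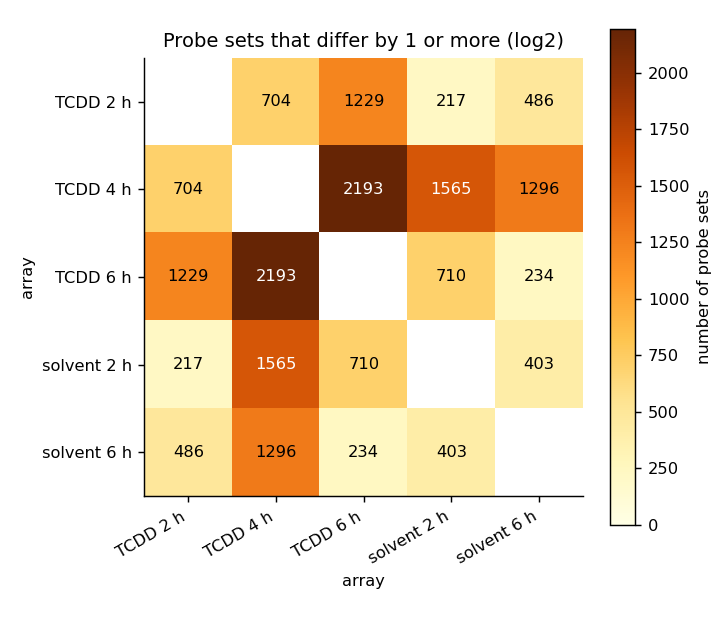
Number of tested probe sets whose levels differ by a log2 of 1 or more between each 2 of the 5 metallothionein-high arrays, with the TCDD arrays first. The row of the 4 h TCDD array holds the highest counts, up to 2193, while the 2 h pair and the 6 h pair differ at 217 and 234 probe sets.

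TCDD came with a higher level of the classic AhR target genes in these arrays. Cyp1a1 was 50.8-fold higher in the 3 TCDD arrays than in the 2 solvent arrays, and the enzymes Cpox, Aldh3a1, Cyp1b1 and Nqo1 and the heparan sulphate proteoglycan gene Gpc1 lay 2.2-fold to 3.9-fold higher. The feedback gene Tiparp was 5.16-fold higher at its brightest probe set, 1426721_s_at, the cytokine gene Il6 stood at 0.406 and the chemokine gene Ccl7 at 0.44 of the solvent level. In limma on the 5 arrays alone, with 3 residual degrees of freedom, 0 of 15762 probe sets (0%) passed a Benjamini-Hochberg adjusted p under 0.05, with 152 at an unadjusted p under 0.05. The smallest adjusted p was 0.212, for Cyp1a1 and for the Cpox probe set 1422492_at. The design was tried on simulated data with 200 changed among 15762 probe sets. It recovered 8% of changes of 1 (log2), 76% of changes of 2 and 98% of changes of 6. These shares may be too high for the real arrays, where Cyp1a1, at a difference of 5.67, did not pass. What an array standing apart, like the 4 h TCDD array, does to recovery was not tested. Missing the cut-off is thus no evidence that a level stayed the same.

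When the 7 metallothionein-low arrays lent their spread to the estimate of error (limma, 12 arrays, 8 residual degrees of freedom), 5 probe sets (0.0317%) passed, all higher with TCDD, with 597 at an unadjusted p under 0.05. They belong to 4 genes, so Cyp1a1, Cpox, Aldh3a1 and Gpc1 rose in this fit. Because the array sets were chosen from values of these arrays, p-values of this fit are not independent of the data. The changes are the same in both fits, and only the error differs. At the median probe set the residual SD was 0.15 in the metallothionein-low and 0.25 in the metallothionein-high arrays. The pooled error, and with it the adjusted p, may therefore be too small for the metallothionein-high arrays. Cyp1a1 and Cpox also passed with any 1 of the 12 arrays left out, Aldh3a1 with 5 and Gpc1 with 4 of the 12 left out in turn. With the replicate number within each time as a block, Cyp1a1 and Tiparp passed, and Cpox, Aldh3a1 and Gpc1 did not. Calls in the lower direction appeared with an array of the set left out: 16 of 33 without the 6 h TCDD array (17 were higher), 1 of 7 without the 2 h TCDD array and 1 of 4 without the 6 h solvent array. Without the 4 h TCDD array 7 probe sets passed, those of Cyp1a1, Cpox, Tiparp and Cyp1b1, so the calls of Aldh3a1 and Gpc1 were lost and those of Tiparp and Cyp1b1 gained. In RNA of whole cultures, fewer cells with a transcript and less of it per cell cannot be told apart.

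Cyp1a1, the cytochrome P450 that serves as the standard readout of AhR activity, read at 10.2, 11.1 and 10.4 (log2) in TCDD arrays at 2, 4 and 6 h, against 4.3 and 5.5 in solvent arrays at 2 and 6 h. The groups were far apart, and the 2 solvent arrays differed by more than the 3 TCDD arrays did. The TCDD arrays averaged 10.57 ± 0.47 (SD, n = 3) and the solvent arrays 4.90 ± 0.85 (SD, n = 2), a difference of 5.67 ± 0.43 (SE; adjusted p = 3.48e-05 in the 12-array limma fit). For the effect of TCDD in the metallothionein-high arrays, the SE is that of the fit on the 5 arrays unless the 12-array fit is named for it, while the adjusted p is taken from the 12-array fit. The solvent level lies near background, where array differences are compressed, so the fold is uncertain in size.

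Cyp1b1, the second Cyp1 enzyme with a level here, read at 9.0, 8.7 and 9.5 with TCDD, against 7.3 and 7.7 with solvent, at probe set 1416613_at. All TCDD values lay above both solvent values, with a difference of 1.57 ± 0.29 (SE) and an adjusted p of 0.105 in the 12-array limma fit. Its brighter probe set 1416612_at gave 11.0, 10.5 and 11.9 against 9.7 and 10.4, a smaller difference of 1.08 ± 0.45. Here the 4 h array was only just above the 6 h solvent array. With time added to the 12-array limma fit, the adjusted p of 1416613_at was 0.0129. Cyp1a2, the liver member of the family, averaged 3.77 with TCDD and 3.80 with solvent, under the filter.

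Tiparp encodes an ADP-ribosyltransferase that dampens AhR activity. At probe set 1452160_at it read at 7.9, 5.1 and 7.2 with TCDD, against 4.0 and 3.6 with solvent. The 2 h and 6 h TCDD arrays stood far above the solvent arrays, and the 4 h TCDD array lay much nearer to them. The brightest probe set, 1426721_s_at, gave 9.2, 6.8 and 8.5 against 6.1 and 5.5, and 1452161_at gave 8.2, 4.7 and 6.6 against 4.5 and 4.0, with the same low 4 h value in all 3 probe sets. The difference at 1452160_at was 2.93 ± 0.80 (SE; adjusted p = 0.297 in the 12-array limma fit), and without the 4 h array it was 3.75. Its solvent values lie at background, where differences are compressed, so this size is uncertain. The metallothionein-low arrays gave a difference of 4.08 ± 0.48 (SE of the 12-array fit) at this probe set.

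Cpox, coproporphyrinogen oxidase of the haem pathway, varied little within its groups at one probe set. Probe set 1422492_at read at 7.6, 7.8 and 7.6 with TCDD, against 5.7 and 5.7 with solvent. The difference of 1.97 ± 0.17 (SE) had an adjusted p of 0.000372 in the 12-array limma fit. The second probe set, 1422493_at, gave 8.8, 8.2 and 8.2 against 6.3 and 7.0, a difference of 1.75 ± 0.31 (adjusted p = 0.0326 in that fit). Its groups did not overlap either. Of the other haem synthesis enzymes, none passed, and Alas1, the first enzyme of the pathway, read at 7.6, 7.7 and 7.7 with TCDD against 7.3 and 7.8 with solvent.

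The promoters of Cyp1a1, Tiparp and Cpox, the 3 genes of largest difference, are shown for the AhR core that each holds. Capitals mark GCGTG, the core of the xenobiotic response element, or CACGC where it lies on the other strand; both strands were searched. The windows are again 300 bases from RefSeq (GRCm38.p6), plus strand, at chr9:57697363-57697662 for Cyp1a1, chr3:65528197-65528496 for Tiparp and chr16:58669958-58670257 for Cpox.
Cyp1a1: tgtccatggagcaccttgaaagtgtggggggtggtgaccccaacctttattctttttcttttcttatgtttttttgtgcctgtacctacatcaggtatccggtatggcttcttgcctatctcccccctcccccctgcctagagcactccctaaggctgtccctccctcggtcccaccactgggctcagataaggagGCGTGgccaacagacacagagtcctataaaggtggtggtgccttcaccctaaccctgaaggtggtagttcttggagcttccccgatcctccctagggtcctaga
Tiparp: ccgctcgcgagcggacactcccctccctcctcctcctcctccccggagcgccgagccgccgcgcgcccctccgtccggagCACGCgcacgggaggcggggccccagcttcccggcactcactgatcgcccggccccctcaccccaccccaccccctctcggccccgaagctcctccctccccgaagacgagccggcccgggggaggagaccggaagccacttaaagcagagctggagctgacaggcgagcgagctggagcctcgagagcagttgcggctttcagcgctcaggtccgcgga
Cpox: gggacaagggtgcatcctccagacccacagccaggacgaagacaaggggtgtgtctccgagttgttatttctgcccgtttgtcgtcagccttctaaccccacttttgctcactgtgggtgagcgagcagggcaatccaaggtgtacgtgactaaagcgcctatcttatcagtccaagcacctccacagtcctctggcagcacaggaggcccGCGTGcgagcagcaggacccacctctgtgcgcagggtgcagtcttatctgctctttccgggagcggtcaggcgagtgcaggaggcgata
Each window held 1 core, beginning 54 bases before the start site in Cyp1a1, 170 in Tiparp and 39 in Cpox. The core is common, since 32.4% of all 32851 windows held it. Of the 10 genes that met the rule for naming given below, 7 had a window (Aldh3a1, Gpc1 and Ccl7 did not) and 4 of these held the core, Cyp1b1 being the other. The windows of Nqo1, Antxr2 and Il6 did not hold these letters, which says nothing of the receptor at other sites. Cpox also held 4 metal response cores, which share no letters with its GCGTG.

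Aldh3a1, an aldehyde dehydrogenase and classic dioxin target, read at 9.2, 10.1 and 9.9 with TCDD, against 7.6 and 8.0 with solvent. The groups were separate at both times, with a difference of 1.93 ± 0.31 (SE; adjusted p = 0.0326 in the 12-array limma fit). Gpc1, which carries heparan sulphate at the cell surface, read at 7.9, 8.6 and 8.3 with TCDD, against 6.6 and 6.7 with solvent. Its difference was 1.62 ± 0.25 (SE; adjusted p = 0.0420 in the same limma fit). With time added to that fit, Gpc1 no longer passed (adjusted p = 0.0680 in limma), while Aldh3a1 did (0.0240).

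Nqo1, a quinone reductase under both AhR and NRF2, read at 8.5, 8.8 and 9.4 with TCDD, against 7.5 and 8.0 with solvent. Antxr2, a receptor for matrix proteins, read at 7.0, 7.2 and 7.9 with TCDD, against 5.8 and 6.7 with solvent. All TCDD values of both genes lay above both solvent values, with differences of 1.15 ± 0.32 and 1.12 ± 0.38 (SE), and neither passed, at adjusted p = 0.847 and 0.848 in the 12-array limma fit.

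On the low side, Il6, a proinflammatory cytokine, read at 7.0, 6.1 and 6.4 with TCDD, against 8.2 and 7.4 with solvent. Ccl7, a monocyte chemokine, read at 6.9, 6.5 and 7.2 with TCDD, against 7.9 and 8.2 with solvent. Ccl2, its neighbour and a ligand of the same receptor, read at 7.8, 7.4 and 8.0 against 8.7 and 8.8. In all 3 genes every TCDD array lay below both solvent arrays. The differences were -1.30 ± 0.36, -1.18 ± 0.26 and -1.02 ± 0.23 (SE), with adjusted p-values of 0.426, 0.334 and 0.119 in the 12-array limma fit, so none passed.

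**Figure D2:**
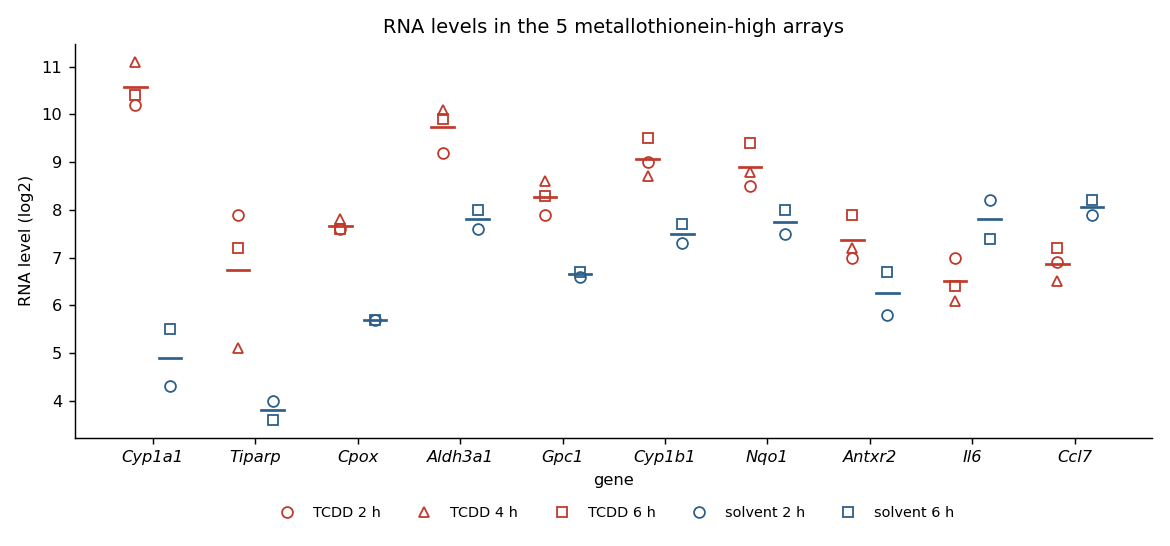
RNA level (log2) of 10 genes in the 5 metallothionein-high arrays, TCDD to the left and solvent to the right of each name, with symbols for time and bars for group means. Each gene is shown at its probe set with the smallest p. In each gene the TCDD values lie wholly above or, for Il6 and Ccl7, wholly below the solvent values, and the 4 h value of Tiparp, 5.1, is the lowest of its TCDD values.

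These 10 genes are those whose 3 TCDD arrays all lay beyond both solvent arrays and whose 2 h and 6 h pairs both differed by a log2 of 1 or more the same way. Over all tested probe sets, 505 (3.2%) had all TCDD arrays above both solvent arrays and 391 (2.48%) had all below. With 3 arrays against 2 the smallest exact two-sided p for a single probe set is 0.2, so this separation is a description. Counted by gene, with each gene represented by its brightest probe set, 306 of 9391 genes (3.26%) lay above and 222 (2.36%) below, and the median change of all genes was 0.02. Without the 4 h TCDD array these counts were 452 (4.81%) and 585 (6.23%). The gene lists below were made with earlier results of these data known and hold several of the 10 genes. Their counts are therefore descriptions.

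Among 11 tested AhR target genes, 8 had all TCDD arrays above both solvent arrays and 0 below, beside 3.26% and 2.36% of all genes. All 11 changes were above 0, beside 5033 of the 9391 genes, with a median of 1.08, and without the 4 h array 9 of 11 were separate with a median of 0.95. Xdh, xanthine dehydrogenase, read at 8.8, 8.6 and 9.0 with TCDD, against 8.2 and 8.1 with solvent, and Cbr3, a carbonyl reductase, at 10.3, 11.0 and 9.9 against 8.9 and 9.4. In both genes every TCDD array lay above both solvent arrays. Nfe2l2, which encodes NRF2, read at 8.7, 7.0 and 8.1 with TCDD, against 7.8 and 7.3 with solvent. The 2 h and the 6 h TCDD array thus exceeded the solvent array of the same time, and the 4 h array lay below both solvent arrays. Cyp1a2, Ahrr, Gsta2, Selenbp1, Lrat and Scin were on the array but under the filter.

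Of 9 tested genes for the receptor and its partners, 0 separated in either direction, beside 3.26% above and 2.36% below of all genes. The median change was -0.12. A single member lay below without the 4 h array, beside 6.23% of all genes. Ahr itself read at 5.1, 4.8 and 6.6 with TCDD, against 7.2 and 6.6 with solvent, at probe set 1422631_at. The 2 h and 4 h TCDD arrays lay below both solvent arrays and the 6 h TCDD array equalled its solvent partner. A second Ahr probe set, 1450695_at, stayed at 4.3 with TCDD and at 4.3 and 4.4 with solvent, near the filter. Arnt, the partner of the receptor, read at 4.6, 4.7 and 4.5 against 4.7 and 4.7.

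Among 18 tested NRF2 antioxidant genes, 5 lay above and 0 below, beside 3.26% and 2.36% of all genes, with a median change of 0.28. Without the 4 h array it was 5 and 0, beside 4.81% and 6.23%, with a median of 0.18. Besides Nqo1 they were Gclm (8.6, 9.0 and 9.0 with TCDD against 8.4 and 8.3 with solvent), a subunit of the enzyme that starts glutathione synthesis, the glutathione reductase gene Gsr (8.5, 8.7 and 8.5 against 7.9 and 8.2), Gsta4 and Txnrd1. Their differences were 0.37 to 0.52 apart from Nqo1, and 0 of the 18 passed. Hmox1, haem oxygenase, read at 10.3, 10.1 and 8.1 with TCDD and at 10.2 and 8.3 with solvent, high at 2 h and low at 6 h under either treatment.

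Of 17 tested chemokine and stromal cytokine genes, 3 lay above and 6 below, beside 3.26% and 2.36% of all genes, with a median change of -0.13. Without the 4 h array it was 3 and 7, beside 4.81% and 6.23%. Beside Il6, Ccl7 and Ccl2, the 6 were Cx3cl1, Csf1 and Cxcl10. The 3 above were Tslp, Grem1 and Gdnf. Tslp, an epithelial cytokine, read at 5.3, 5.3 and 5.1 with TCDD, against 4.3 and 4.2 with solvent, a difference of 0.98 ± 0.17 (SE; adjusted p = 0.426 in the 12-array limma fit). Grem1, a secreted BMP antagonist, read at 7.8, 7.6 and 7.9 against 7.3 and 7.1, and Gdnf, a growth factor of the TGF-beta superfamily, at 5.4, 4.4 and 4.8 against 4.1 and 4.0. Cxcl12, the chemokine ligand of Cxcr4, was at 12.2, 11.9 and 12.3 against 12.2 and 12.3.

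Of 13 tested BMP and Id genes, 0 lay above and 5 below, beside 3.26% and 2.36% of all genes. A change above 0 was seen in 0 of 13, beside 5033 of 9391 genes, and the median was -0.42. Grem1, a BMP antagonist with a change of 0.57, was counted with the chemokines and cytokines, so this 0 depends on how the lists were drawn. Without the 4 h array 6 lay below, beside 6.23% of all genes, 1 of 13 had a change above 0, beside 4017 of 9391, and the median was -0.25. Bmp4, a ligand that shapes thymic epithelium, read at 7.2, 6.4 and 7.1 with TCDD, against 8.0 and 7.6 with solvent. Id1, a BMP-induced inhibitor of helix-loop-helix factors, read at 8.4, 9.1 and 8.8 against 9.7 and 9.2, and Id3 at 9.8, 10.0 and 9.4 against 10.6 and 10.1. The TCDD values of all 3 lay below both solvent values, by as little as 0.1 in Id1 and Id3, and 0 of the 13 passed. The TGF-beta list had 1 above and 3 below of 17, Tgfb3, Inhba and Ltbp2 being the 3 below, with a median of -0.12, against the same shares of all genes, and without the 4 h array it was again 1 and 3.

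**Figure D3:**
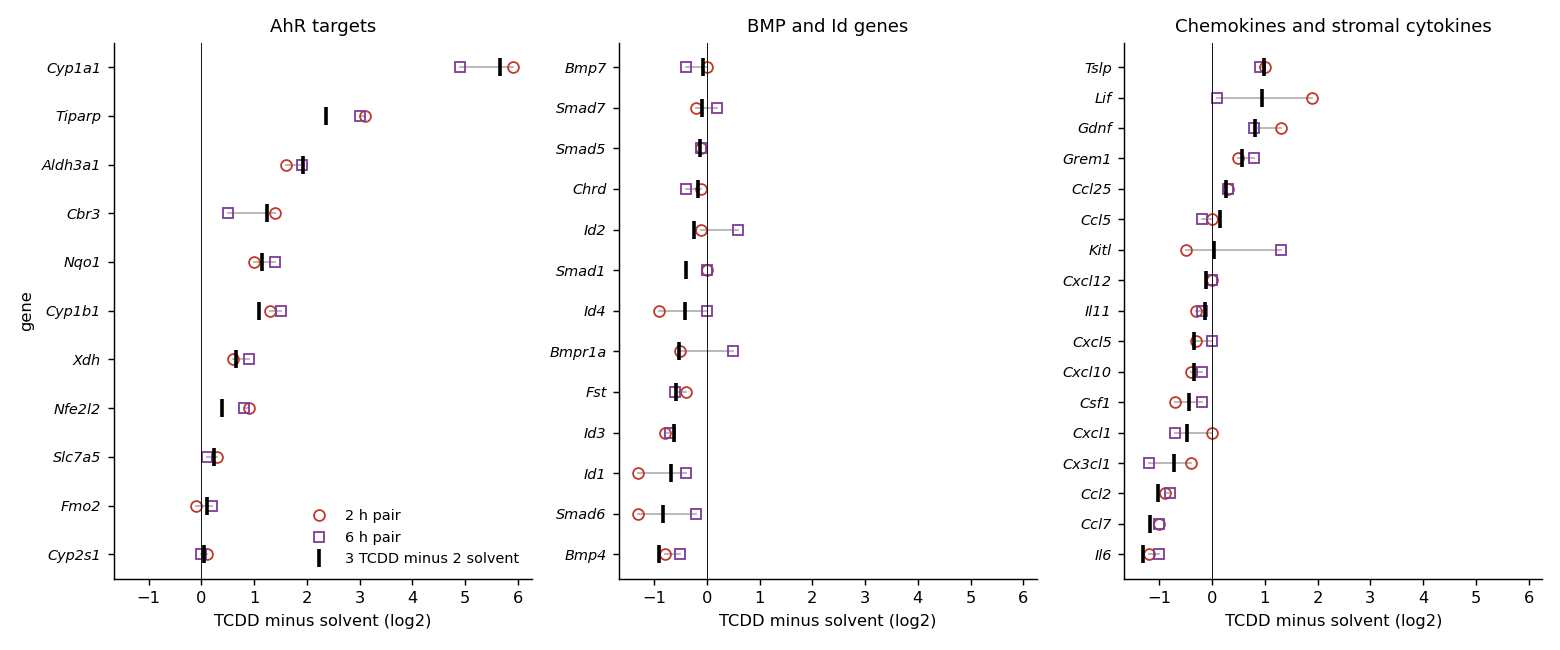
TCDD minus solvent (log2) of the tested members of 3 gene lists, each at its brightest probe set: circles give the 2 h pair, squares the 6 h pair and bars the difference of the 3 TCDD and 2 solvent means. All 11 AhR target changes are above 0 and none of the 13 BMP and Id changes is, while chemokine and cytokine genes lie on both sides. The BMP antagonist Grem1 is placed in the chemokine and cytokine list.

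In the matrix list, 3 of 22 lay above and 0 below, beside 3.26% and 2.36% of all genes, with a median of -0.13. They were Gpc1, Antxr2 and Ptx3, and without the 4 h array it was again 3 and 0. Gpc1 and Antxr2 were already named by rule, and the list was made with earlier results known, so this count is no support. Ptx3, a pentraxin that helps to assemble hyaluronan, read at 9.8, 9.7 and 9.0 with TCDD, against 8.4 and 8.3 with solvent (1.15 ± 0.28, SE; adjusted p = 0.237 in the 12-array limma fit). Creb3l1, a membrane-bound factor of the unfolded protein list, read at 8.2, 9.1 and 8.9 against 7.5 and 8.0 and was the member above among 21, with 0 below (2 and 0 without the 4 h array). Cdkn1b, a CDK inhibitor, read at 9.0, 8.2 and 8.4 against 7.7 and 8.1 and was the member above among 16 p53 targets and CDK inhibitors, with Cdkn2c below (1 and 3 without the 4 h array). Of the remaining lists, NF-kB had 2 above and 2 below of 11, MAPK feedback 1 and 1 of 11, haem synthesis 1 and 1 of 8, hypoxia 0 and 1 of 18, G2/M 1 and 0 of 15 and prostaglandin synthesis 0 and 1 of 6. Beside every count in this paragraph stand 3.26% above and 2.36% below of all genes. Without the 4 h array these shares were 4.81% and 6.23%, so a single member is not read as a result about its list. When the 4 h array was left out, haem synthesis had 1 and 3, G2/M had 3 and 0, and the other 4 of these lists had the same counts. No member was separate in the metallothionein, heat shock, immediate early, EGF ligand, sterol, G1/S, interferon, circadian, glucocorticoid and RGS lists. There, without the 4 h array, metallothionein and zinc genes had 1 above, interferon and circadian genes 1 below each, and glucocorticoid and RGS genes 2 below each, with none in the other 5. Fibroblast and mesenchyme markers had 0 above and 2 below of 14 (Pdgfrb and Lum), with a median of -0.18, and without the 4 h array 3 below. The part of these markers in the results above was not tested.

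At 2 h the TCDD array and its solvent partner differed by 1 or more at 217 probe sets, 70 higher (0.444%) and 147 lower (0.933%). At 6 h the balance was the other way, with 221 higher (1.4%) and 13 lower (0.0825%). Each pair is 1 array against 1, so there is no test, and the solvent array of the 6 h pair is the one with the doubtful time. Across probe sets the differences of the 2 pairs, which share no array, correlated at r = -0.24, a description over 15762 probe sets that are not independent.

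In both pairs alike, 15 probe sets (0.0952%) of 11 genes were higher by 1 or more and 2 probe sets (0.0127%) were lower. The 11 are the 8 higher genes named above and Serpinb2, Ereg and Plscr2, which had a TCDD array among the solvent values. Serpinb2, a protease inhibitor and reported dioxin target, read at 5.0, 5.7 and 6.5 with TCDD, against 3.9 and 5.5 with solvent. Ereg, an EGF receptor ligand, read at 9.6, 6.8 and 8.0 against 8.5 and 6.9. In both genes the 2 solvent arrays lay 1.6 apart.

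Some genes of the growth arrest and cytokine lists differed at 2 h and hardly at 6 h. Cdkn1a, which encodes the CDK inhibitor p21, read at 9.8, 8.3 and 6.9 with TCDD, against 7.3 and 6.6 with solvent, so the pair difference was 2.5 at 2 h and 0.3 at 6 h. Socs3, a feedback inhibitor of cytokine receptors, read at 9.7, 9.3 and 8.4 against 7.2 and 8.3, a pair difference of 2.5 at 2 h and 0.1 at 6 h. These pair differences hold for the probe set shown only. At another Socs3 probe set, the one with the smallest p, the TCDD mean of the metallothionein-high set exceeded the solvent mean by 1.17. Lif, a cytokine of the IL-6 family, read at 7.7, 6.4 and 5.4 against 5.8 and 5.3, with pair differences of 1.9 and 0.1. Whether these effects differ with time was not tested, since each pair is 1 array against 1. Vcan, the proteoglycan versican, went the other way, at 4.2, 4.3 and 8.1 with TCDD against 5.0 and 5.6 with solvent, or -0.8 at 2 h and 2.5 at 6 h.

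Nr4a1 and Fos, immediate early genes that answer quickly to stimulation, each differed by at most 0.3 within a pair. Nr4a1 read at 8.9, 6.7 and 6.3 with TCDD and at 8.6 and 6.1 with solvent, and Fos at 6.3, 4.9 and 4.6 against 6.0 and 4.9. Both genes were higher at 2 h than later under either treatment. Fosl1, a Fos relative of slower response, read at 10.1, 9.6 and 9.0 against 9.0 and 8.6, with pair differences of 1.1 and 0.4. Over the 18 tested members of this list the median pair difference was 0.3 at 2 h and -0.05 at 6 h, beside 0 and 0 over all genes.

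**Figure D4:**
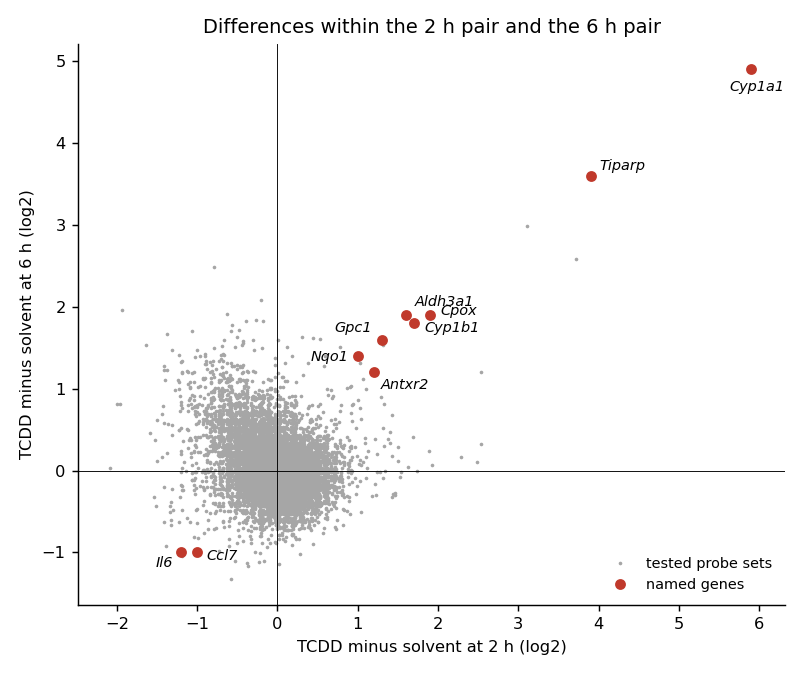
Difference of TCDD minus solvent (log2) within the 2 h pair (x) and the 6 h pair (y) for all 15762 tested probe sets in grey, with small random offsets because values carry 1 decimal, and 10 named genes in red at the probe set with the smallest p. Cyp1a1 (5.9 and 4.9) and Tiparp (3.9 and 3.6) stand at the upper right, and the cloud leans to the upper left.

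The effect of TCDD was set beside the same effect in the 7 metallothionein-low arrays, which share no array with this set. In the 12-array limma fit 18 probe sets of 13 genes (0.114%) passed in the metallothionein-low arrays, all higher with TCDD. The 5 that passed in the metallothionein-high arrays were all among them, which is 5 of 5 and 5 of 18. All 18 had a change above 0 in the metallothionein-high arrays, beside 5033 of 9391 genes. In 16 of them all TCDD arrays there lay above both solvent arrays, beside 505 of 15762 tested probe sets (3.2%). Each of the 18 changes was smaller than in the metallothionein-low arrays, which chose these probe sets. The difference of effects ran from -0.08 for Cyp1a1 to -1.43 for Tiparp (1426721_s_at). Both effects share an estimate of error per probe set, and over all tested probe sets they correlated at r = -0.08. Of the 11 AhR targets, 8 had separate groups in the metallothionein-low arrays too, with a median of 1.28, against backgrounds there of 235 genes above (2.5%) and 545 below (5.8%).

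Cyp1a1 differed by 5.67 between TCDD and solvent in the metallothionein-high arrays and by 5.74 in the metallothionein-low arrays, a difference of effects of -0.08 with a 95% interval of -1.10 to 0.95. For Aldh3a1 the effects were 1.93 and 2.03 (difference -0.10, interval -0.84 to 0.64). For Gpc1 they were 1.62 and 1.84 (difference -0.22, interval -0.88 to 0.43). For Cpox at 1422492_at they were 1.97 and 2.53, a difference of -0.57 whose interval of -1.03 to -0.10 leaves out 0 before adjustment (adjusted p = 0.786 in limma). Its brighter probe set, 1422493_at, gave 1.75 and 2.01 (difference -0.26), with an interval of -0.92 to 0.40 that holds 0. Tiparp had 2.93 and 4.08 at 1452160_at (difference -1.14, interval -2.78 to 0.49), with the low 4 h array in the metallothionein-high mean. At its brightest probe set, 1426721_s_at, the difference was -1.43. Its interval of -2.86 to -0.0028 just leaves out 0 before adjustment (adjusted p = 0.786 in limma). At 1452161_at the interval was -3.19 to 0.64. Il6 had -1.30 and -0.94 (difference -0.36, interval -1.19 to 0.48), at levels that were higher in the metallothionein-high arrays: 6.1 to 7.0 with TCDD and 7.4 to 8.2 with solvent, against 4.7 to 5.4 and 6.0 to 6.3 in the metallothionein-low arrays.

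The difference of the effects between the sets passed adjustment at 0 of 15762 probe sets (0%) in limma, with 682 at an unadjusted p under 0.05. A difference of effects of 1 was recovered in 26% of simulated cases and one of 2 in 96%. The simulation was of the kind described above, so these shares may be too high as well. The interval of most genes is therefore wide, and equality of the effects is not shown. The 5 genes with the smallest p on each side are given as values, each with an adjusted p of 0.786 in limma.

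Lum, which encodes the matrix proteoglycan lumican, read at 4.0, 4.2 and 4.2 with TCDD and 4.7 and 4.6 with solvent in the metallothionein-high arrays, an effect of -0.52 ± 0.18 (SE of the 12-array fit). In the metallothionein-low arrays the effect was 0.55 ± 0.15, with 4.3, 4.7 and 4.8 with TCDD against 3.8 to 4.3 with solvent. Saa3, an acute-phase serum amyloid, read at 8.9, 9.4 and 9.3 against 10.0 and 9.9, an effect of -0.75 ± 0.17, beside 0.18 ± 0.14 in the metallothionein-low arrays. Both genes thus had separate groups in the metallothionein-high arrays. Rtp4, an interferon-induced gene, had -0.20 ± 0.18 beside 0.82 ± 0.15, Nid2, a basement membrane nidogen, -0.20 ± 0.16 beside 0.64 ± 0.13, and Frmd4b -0.80 ± 0.19 beside 0.28 ± 0.16.

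On the other side stood Ackr3, a scavenger receptor for Cxcl12, with 0.17 ± 0.31 in the metallothionein-high and -1.29 ± 0.26 in the metallothionein-low arrays. It read at 4.7, 5.7 and 4.8 with TCDD against 4.4 and 5.4 with solvent, with overlap, in the metallothionein-high arrays. In the metallothionein-low arrays it read at 4.3, 4.5 and 4.2 with TCDD against 5.4 to 5.8 with solvent. Klc1 had 0.60 ± 0.17 beside -0.24 ± 0.14, Traip 0.60 ± 0.20 beside -0.38 ± 0.17, Parp1 0.65 ± 0.17 beside -0.17 ± 0.14 and Cgref1 0.35 ± 0.16 beside -0.41 ± 0.13. In Klc1, Traip and Parp1 the 2 h solvent array of the metallothionein-high set (5.3, 5.1 and 5.8) read below the 6 h one (5.9, 5.7 and 6.5).

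**Figure D5:**
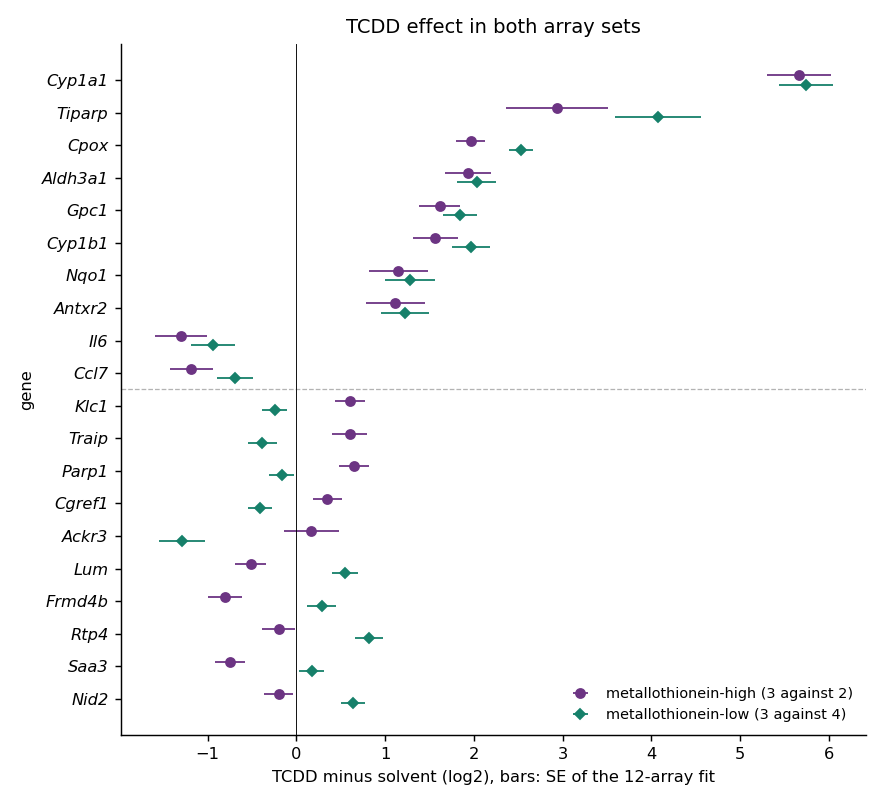
TCDD minus solvent (log2) with the SE of the 12-array fit, for the 10 named genes (above the dashed line) and the 10 genes with the smallest p for a difference between array sets (below it), circles for metallothionein-high and diamonds for metallothionein-low arrays. Above the line both effects have the same sign, and below it the symbols part, with no difference past adjustment.

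Apart from Mt1 and Mt2, other RNAs set all 5 arrays apart from all 7, whatever the treatment. These follow from how the arrays were chosen and from this same table, so they are a description. All 5 metallothionein-high arrays lay above all 7 metallothionein-low arrays at 314 tested probe sets (1.99%) and below them at 498 (3.16%). The gap was 0.5 or more at 19 (0.12% of tested probe sets) and 18 (0.114%) of these. After Mt1 (gap 2.2) and Mt2 (2.1) the widest gaps were those of Rrs1, a ribosome assembly factor, at 8.7 to 9.3 against 7.4 to 7.7, and Ccng2, a cyclin of arrested cells, at 5.4 to 6.1 against 7.1 to 7.8. Tnfrsf12a, the receptor for TWEAK, lay at 10.6 to 11.5 against 9.1 to 9.8, and Pdgfrb, a growth factor receptor of mesenchyme, at 5.8 to 7.2 against 7.9 to 8.2. Rrs1 and Ccng2 were taken by the width of the gap. Tnfrsf12a (gap 0.8) and Pdgfrb (0.7, at probe set 1436970_a_at) were picked among the next widest after their values were seen. Zfyve21 (0.8) and Tmem176a (0.7), both lower in the metallothionein-high arrays, had gaps as wide.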

How the data were processed

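RNA of 12 Affymetrix mouse arrays was analysed, 5 of them closely. What the authors deposited was a log2 value for each probe set, summarised with RMA per the submitters' processing notes, whose version is not given in the sources used here. Since RMA equalises the distributions of arrays (every median was 5.1), a shift of all genes would not be seen. Values ran from 2.2 to 14.1 with 1 decimal, and rounding gave 35 tested probe sets a residual spread of 0 in the 5 arrays. All 12 columns were used, 0 were left out, and no array was dropped or imputed.

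The 64 control probe sets among 22690 were left out of the tests. In the platform annotation 20380 of the others had 1 symbol, 691 had several and 1555 had none. By gene identifier, 20351 of the 20380 were matched to RefSeq (GRCm38.p6), which changed 0 symbols. Probe sets with a mean of 4 or more over the 12 arrays were tested (15762, of which 14495 had 1 symbol, for 9391 genes). Arrays were grouped by title and by the Mt1 threshold of 9.

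Tests used limma 3.58.1 (R 4.3.3) with empirical Bayes variances (prior SD 0.247 with 2.94 degrees of freedom for 5 arrays, 0.196 with 4.02 for 12). Tests were two-sided with Benjamini-Hochberg adjustment over all tested probe sets. The fit of 5 arrays compared 3 TCDD with 2 solvent arrays. The fit of 12 arrays had 4 means (treatment by array set) and tested the difference of the effects. Errors after ± are SD or SE as stated, and unless the 12-array fit is named the SE is that of the 5 arrays. On simulated data with 200 changed among 15762 probe sets, false calls numbered 10 of 15562 in either comparison.

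Named genes were those past a test, those beyond both solvent arrays with both pairs differing by 1 or more (at most 15 a direction), the 5 with the smallest p of a difference between sets on each side, and members of gene lists. The arrays, members and lists were chosen with earlier results of these data known. Alternatives (filters, centring, time, a replicate block, variance models, thresholds of 8 and 10, each array left out) are given in the closing section.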

Additional observations from a re-analysis of the deposited data

Results flagged for a closer look

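The TCDD effect ran opposite ways in the 2 h and the 6 h pair at 32 probe sets, 30 of them of 23 genes with a single symbol and 2 unnamed, each lower by 1 or more with TCDD at 2 h and higher by 1 or more at 6 h, while 0 probe sets ran the reverse way. Each pair is 1 array against 1, so the difference was not tested. Nfat5, an osmotic stress factor, read at 5.1 with TCDD against 7.0 with solvent at 2 h, and at 7.7 against 5.7 at 6 h. Luc7l2, a splicing factor with 3 of the probe sets, read at 6.9 against 8.3 at 2 h and at 8.3 against 6.6 at 6 h at probe set 1436766_at. The nuclear RNA Malat1, the cyclophilin-like Nktr and the kinase gene Rock1 were among the others; these names were chosen after their values were seen. The 4 h TCDD array lay below both solvent arrays at 30 of the 32, and the 6 h TCDD array was the highest of the 5 at 29. On the metallothionein-low arrays Nfat5 spanned 5.2 to 7.3.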

How the results depend on the processing

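For 20 genes, the 10 named by rule and 10 list members, all 298 values under alternative settings kept the direction of TCDD minus solvent. So did 167 values for the 10 genes of the difference between sets. These genes were chosen by separate groups, by small p or with their values known, so the kept direction was largely fixed beforehand. It is a description and no support for the changes. The count past adjustment in the metallothionein-high arrays, 0, became 1 with each array centred on its median (Cyp1a1, adjusted p = 0.0462 in limma), 5 in the 12-array fit and 4 in that fit with time as a factor, where Gpc1 did not pass and Cyp1b1 did. It stayed at 0 under the other settings run, leaving out each array and the replicate block included. The replicate numbers gave only the 2 h and 6 h pairs, so a paired reading rests on a shared number; with the replicate block the count was 0 and Cyp1a1 differed by 5.40. In the metallothionein-low arrays 18 became 7 with the replicate block and 8 to 38 with an array left out, the highest without the second 6 h TCDD array. Probe sets with separate groups numbered 765 to 2828 (higher) and 947 to 2543 (lower) with an array left out, which leaves fewer arrays to separate. The count for the difference between sets was 0 throughout. Counts of the 12-array fit in the metallothionein-high arrays, added after the data were seen, were 2 to 33 instead of 5 with an array left out, the highest (17 higher and 16 lower) without the second 6 h TCDD array. They were 3 with the replicate block, where Cyp1a1 and Tiparp passed and Cpox, Aldh3a1 and Gpc1 did not. Cyp1a1 differed by 5.07 without the 2 h and by 6.27 without the 6 h solvent array. Cdkn1a, at 1.38, stood at 0.65 without the 2 h TCDD array and at 2.10 without the 6 h one. The number of arrays and the compression of low signals limit every size given.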
